A study of Homo sapiens with 6 samples.

Results

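The BCL2 family decides at the outer mitochondrial membrane whether a cell starts apoptosis, and 10 of its genes were followed in the human hepatoma line Huh7 after treatment with the compound 16'-DEC. The genes were a fixed list of symbols, each found on 1 row of a table of 78304 genes. The list was set with earlier results of these data known. They comprise 3 anti-apoptotic genes (BCL2L1, MCL1 and BCL2L2), 2 effectors (BAX and BAK1) and 5 BH3-only genes (BID, BAD, BCL2L11, BBC3 and PMAIP1). Huh7 is an established line from a hepatocellular carcinoma, labelled wild type. It was seeded for 24 h and then received 16'-DEC for 24 h (3 libraries) or its vehicle DMSO for 24 h (3 libraries), and messenger RNA was sequenced after poly(A) selection. The labels give neither the structure of 16'-DEC nor a dose. Nor do they state whether replicate libraries were separate cultures. The p-values therefore refer to the spread among these 6 libraries, which may be technical.

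In healthy and in cancer cells the anti-apoptotic members hold the effectors in check. BAX and BAK1, once released or activated, form pores in the outer mitochondrial membrane, and cytochrome c escapes to start the caspase cascade. BH3-only proteins are the sensors of stress: they bind the groove of the anti-apoptotic members, or the effectors themselves, through a short helix called the BH3 domain. Hepatocytes and many hepatomas depend on BCL-XL (the main product of BCL2L1) and on MCL1 for survival. Much of the control of these proteins lies in cleavage, phosphorylation, degradation and splicing, none of which a gene-level RNA value shows.

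The BH3 domain is the element by which all 10 proteins meet, so the stretch of messenger RNA that encodes it is shown for each gene, read from the GENCODE 29 transcripts and written as DNA. Capitals mark 6 codons, namely 1 for leucine or methionine, any 3 codons, 1 for glycine, alanine or serine, and 1 for aspartate; 4 codons precede them and 3 follow. The pattern occurred in all 10 members and also in 39.6% of 19922 protein-coding genes (7890 of them), so the letters alone do not define the family. BID held it at 2 places, and the place most like the other members is given.
BCL2L1: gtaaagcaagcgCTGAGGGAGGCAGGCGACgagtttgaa
MCL1: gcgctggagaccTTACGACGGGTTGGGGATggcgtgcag
BCL2L2: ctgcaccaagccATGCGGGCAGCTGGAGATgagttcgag
BAX: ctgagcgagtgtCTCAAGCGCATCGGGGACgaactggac
BAK1: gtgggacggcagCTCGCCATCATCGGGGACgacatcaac
BID: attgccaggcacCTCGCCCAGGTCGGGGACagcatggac
BAD: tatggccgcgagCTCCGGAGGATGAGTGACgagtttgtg
BCL2L11: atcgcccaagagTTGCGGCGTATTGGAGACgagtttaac
BBC3: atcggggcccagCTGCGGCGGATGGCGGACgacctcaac
PMAIP1: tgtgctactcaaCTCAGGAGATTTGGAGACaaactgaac

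Each stretch lay within a single coding exon. On GRCh38 the positions are chr20:31721925-31721963 for BCL2L1 (minus strand, exon 2 of 3), chr1:150578868-150578906 for MCL1 (minus, exon 1 of 3) and chr14:23307891-23307929 for BCL2L2 (plus, exon 3 of 4). The effectors carry theirs at chr19:48955775-48955813 for BAX (plus, exon 3 of 6) and chr6:33575390-33575428 for BAK1 (minus, exon 4 of 6). Those of the BH3-only genes are chr22:17739418-17739456 for BID (minus, exon 4 of 6), chr11:64271625-64271663 for BAD (minus, exon 2 of 3) and chr2:111150091-111150129 for BCL2L11 (plus, exon 4 of 5). BBC3 has its stretch at chr19:47226582-47226620 (minus, exon 3 of 4) and PMAIP1 at chr18:59902661-59902699 (plus, exon 2 of 2). Base by base the stretches differed widely: the closest pairs, such as BAK1 with BID and BCL2L1 with BCL2L2, shared 25 of 39 bases, and MCL1 with PMAIP1 shared 12. The GC content of the stretch ran from 43.6% in PMAIP1 to 71.8% in BBC3.

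Levels are in TPM (transcripts per unit length, scaled so that each library has the same sum), which carry no depth, and a bulk value does not tell fewer cells from less RNA per cell. The 14275 genes that averaged 1 TPM or more, all 10 members among them, were tested with limma on log2(TPM + 1), the scale of every log2 change given, and adjusted p-values (Benjamini-Hochberg, threshold 0.05) run over all of them. In these libraries 71.5% of tested genes passed, 22.7% higher and 48.9% lower with 16'-DEC, and the median gene changed by -0.31. Of the BCL2 family, 5 of 10 genes passed as higher and 3 of 10 as lower, with a median of 0.14 over the 10. A total of 8 in 10 is close to the share of all genes. The libraries of the groups did not overlap in 8 of the 10 genes, higher in 5 and lower in 3, against 75.3% of all tested genes (24.3% higher and 51% lower). Libraries correlated across genes at 0.99 to 0.994 within 16'-DEC, 0.982 to 0.989 within DMSO and 0.898 to 0.922 between the groups. All 7 hepatocyte and hepatoma markers examined were present, with a summed level of 9583 to 10005 TPM with 16'-DEC and 11012 to 11481 TPM in DMSO. They did not move alike: ALB, AFP and APOB were lower with 16'-DEC, APOA1 and SERPINA1 were higher, and TTR and GPC3 did not pass. Of 4 blood, 3 endothelial and 4 fibroblast markers, LYZ, PDGFRB and ACTA2 averaged at least 1 TPM, CD3E and DCN were listed at 0 in every library, and the summed endothelial level was 0.215 to 0.694 TPM with 16'-DEC and 0.175 to 0.549 TPM in DMSO. The blood list summed to 827 to 949 TPM with 16'-DEC and 1632 to 1811 TPM in DMSO, nearly all of it LYZ, and the fibroblast list to 12.3 to 13.4 and 14.9 to 19.7 TPM. The part of these levels in the results was not tested.

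**Figure D1:**
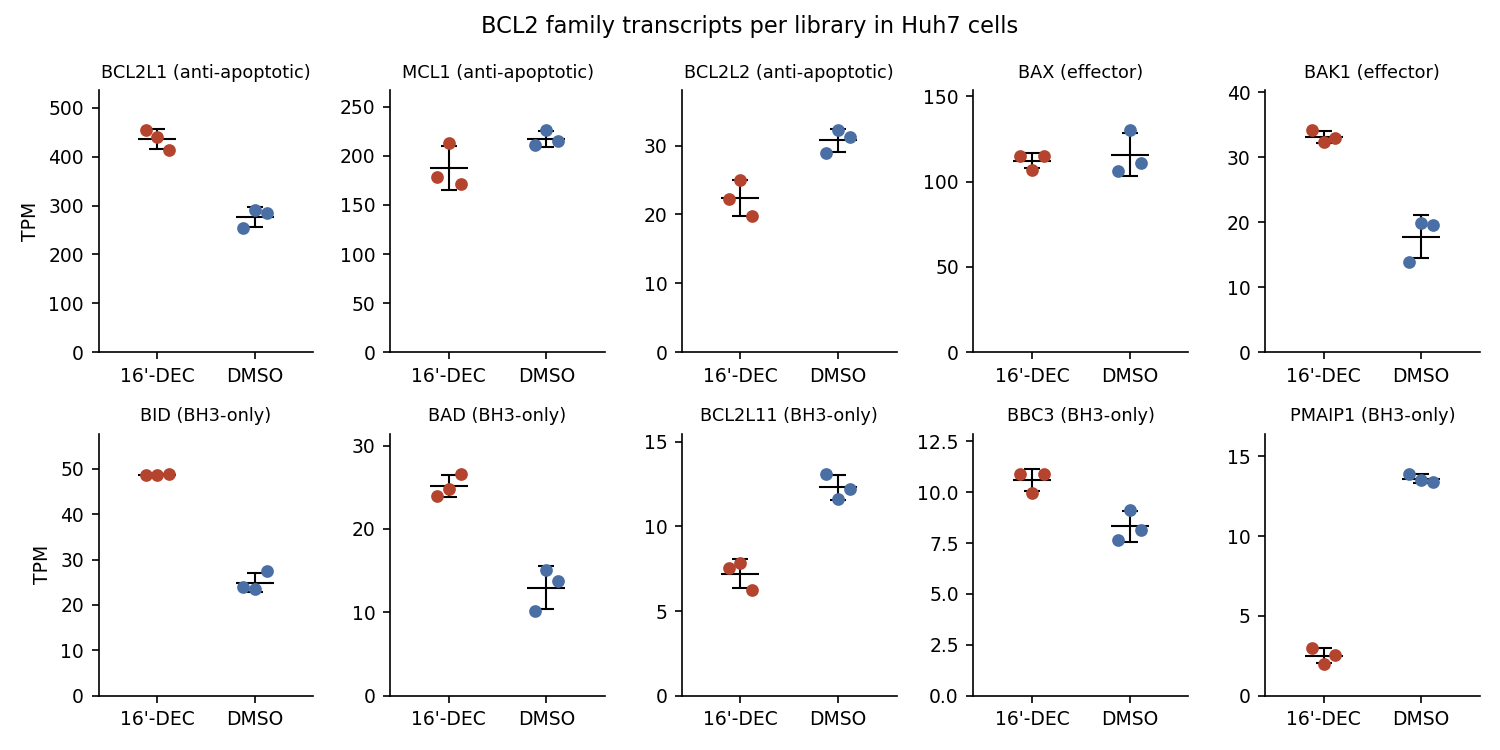
TPM of the 10 BCL2 family genes in each library, 1 panel per gene with its class, 16'-DEC on the left and DMSO on the right; points are libraries, bars the mean ± SD of 3, and each vertical axis starts at 0. The groups are apart in 8 panels, with PMAIP1 at 2.51 against 13.6 TPM the widest gap, and overlap for MCL1 and BAX.

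Among the anti-apoptotic genes BCL2L1 rose, BCL2L2 fell and MCL1 did not pass. BCL2L1 encodes BCL-XL and, by splicing, a shorter pro-apoptotic form, and the table does not separate them. It stood at 454, 441 and 414 TPM with 16'-DEC, against 254, 292 and 285 TPM in DMSO. Every treated library lay above every DMSO library. The means were 436 ± 20.6 and 277 ± 20.2 TPM (SD, n = 3 each), a ratio of 1.57 and a log2 change of 0.65 ± 0.0767 (SE, adjusted p = 6.41e-05, limma). Of all tested genes, 91.3% had this change or a lower one. The gene (ENSG00000171552, chr20:31664452-31723989) overlaps the antisense genes ABALON and AL117381.1, both of which averaged under 1 TPM in either group.

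MCL1 encodes a short-lived protein that guards against BAK1 and is the partner of PMAIP1. Its level was 179, 213 and 171 TPM with 16'-DEC, against 211, 226 and 215 TPM in DMSO. The groups overlapped through 16'-DEC replicate 2 alone. The log2 change was -0.22 ± 0.0911 (SE, adjusted p = 0.0573, limma), and without 16'-DEC replicate 2 it was -0.31 and passed (adjusted p = 0.00814). The direction of MCL1 turned with the processing: the change was 0.13 with median-of-ratios scaling (adjusted p = 0.161), -0.15 after quantile normalization (adjusted p = 0.12), and 0.37, passing as higher, once GC content and length of the transcript were adjusted for (adjusted p = 0.00168). MCL1 (ENSG00000143384, chr1:150574551-150579738) has a chosen transcript of 3932 bases with a GC content of 45.1%, although its coding part has 61%.

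BCL2L2 encodes BCL-W, a close relative of BCL-XL. It had 22.3, 25 and 19.8 TPM with 16'-DEC, against 28.9, 32.2 and 31.2 TPM in DMSO, so that the groups did not overlap. BCL2L2 changed by -0.45 ± 0.0995 (SE, adjusted p = 0.00305, limma). It was -0.38 and passed after GC adjustment, but did not pass with median-of-ratios scaling (-0.11, adjusted p = 0.217) or quantile normalization (-0.07, adjusted p = 0.433). BCL2L2 (ENSG00000129473, chr14:23298790-23311759) shares its locus with the read-through gene BCL2L2-PABPN1, which averaged 19.6 ± 4.07 TPM with 16'-DEC and 24.6 ± 3.42 TPM in DMSO, and with PPP1R3E on the opposite strand, which fell by 1.07. HOMEZ also overlaps BCL2L2 on the opposite strand. Strand use is not stated, and the read-through gene lies on the same strand as BCL2L2. Whether reads of these genes were told apart where they overlap is therefore not known, and the level of BCL2L2 is uncertain.

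Of the effectors, BAK1 rose and BAX did not pass. BAK1, which sits in the outer membrane and is held in check by MCL1 and BCL-XL, had 34.1, 32.3 and 33 TPM with 16'-DEC, against 13.9, 19.8 and 19.5 TPM in DMSO. Its lowest treated library exceeded the highest DMSO library, and the ratio of means was 1.87. On the log2 scale BAK1 changed by 0.88 ± 0.13 (SE, adjusted p = 0.000275, limma), with values from 0.583 to 1.27 over all alternatives, each of which passed. BAX, the cytosolic effector that moves to mitochondria on activation, had 115, 107 and 115 TPM with 16'-DEC, against 106, 130 and 111 TPM in DMSO. The groups overlapped, and the log2 change was -0.03 ± 0.0897 (SE, adjusted p = 0.776, limma). The value for BAX went either way with processing: 0.32, passing as higher, with median-of-ratios scaling, 0.18 after quantile normalization (adjusted p = 0.0828), and -0.32, passing as lower, after GC adjustment. BAK1 is ENSG00000030110 (chr6:33572547-33580293) and BAX is ENSG00000087088 (chr19:48954815-48961798).

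The BH3-only genes split, with BID, BAD and BBC3 higher and BCL2L11 and PMAIP1 lower. BID links death receptors to mitochondria, since a protease activated at these receptors cleaves it into an active fragment. It had 48.6, 48.7 and 48.9 TPM with 16'-DEC, against 23.9, 23.5 and 27.4 TPM in DMSO. The treated libraries were nearly equal and all lay above DMSO, and the ratio of means was 1.95. BID changed by 0.94 ± 0.0829 (SE, adjusted p = 1.03e-05, limma), and 96.7% of tested genes had this change or a lower one. BID (ENSG00000015475, chr22:17734138-17774770) kept its direction and passed in all 17 alternatives, from 0.846 to 1.28.

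BAD, which binds BCL-XL when it is not phosphorylated, had 24, 24.8 and 26.6 TPM with 16'-DEC, against 10.1, 15.1 and 13.7 TPM in DMSO. The groups did not overlap, and DMSO replicate 1 was the lowest of all libraries. BAD changed by 0.92 ± 0.136 (SE, adjusted p = 0.000277, limma) and passed in all 17 alternatives, from 0.668 to 1.34. GPR137, which overlaps BAD (ENSG00000002330, chr11:64269830-64284704) on the opposite strand, averaged 14.5 ± 0.574 TPM with 16'-DEC and 12.4 ± 1.45 TPM in DMSO and did not pass. Overlap was judged by gene spans and not by exons, and strand use is not stated. Whether reads of overlapping parts were told apart is therefore not known, here or at BCL2L11.

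BBC3 encodes PUMA, a p53 target that binds every anti-apoptotic member. It had 10.9, 9.98 and 10.9 TPM with 16'-DEC, against 7.67, 9.14 and 8.15 TPM in DMSO. The groups were apart by less than 1 TPM at their nearest libraries, 9.98 and 9.14. The log2 change was 0.32 ± 0.0962 (SE, adjusted p = 0.0156, limma). The call on BBC3 (ENSG00000105327, chr19:47220822-47232766) was lost after GC adjustment (0.16, adjusted p = 0.0529) and without 16'-DEC replicate 1 (adjusted p = 0.0539), DMSO replicate 1 (adjusted p = 0.055) or DMSO replicate 3 (adjusted p = 0.0531).

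BCL2L11 encodes BIM, which FOXO factors induce on loss of growth signals. It had 7.54, 7.85 and 6.22 TPM with 16'-DEC, against 13.1, 11.6 and 12.2 TPM in DMSO. No treated library reached the lowest DMSO library, and the mean was 1.71-fold lower with 16'-DEC. The log2 change was -0.70 ± 0.107 (SE, adjusted p = 0.000334, limma). It passed in all 17 alternatives, from -0.769 to -0.222, the smallest with quantile normalization (adjusted p = 0.042). MIR4435-2HG, which spans BCL2L11 (ENSG00000153094, chr2:111119378-111168447) on the opposite strand, rose by 0.76, to 135 ± 5.91 TPM with 16'-DEC against 79.4 ± 3.51 TPM in DMSO.

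PMAIP1 encodes NOXA, a small BH3-only protein that binds MCL1 and marks it for degradation. With TPM as deposited PMAIP1 changed most of the 10. It had 2.97, 2 and 2.54 TPM with 16'-DEC, against 13.9, 13.5 and 13.4 TPM in DMSO. The 2 groups were far apart, and the mean was 5.43-fold lower with 16'-DEC (2.51 ± 0.484 and 13.6 ± 0.261 TPM, SD, n = 3 each). The log2 change was -2.07 ± 0.118 (SE, adjusted p = 8.16e-07, limma), and 3.35% of tested genes fell by as much or more. After GC adjustment the change was -0.74 ± 0.115 (adjusted p = 0.000867), and BID then changed most of the 10, by 1.03. PMAIP1 is ENSG00000141682 (chr18:59899948-59904306).

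The order of the levels in TPM, which rests on gene lengths that are not stated, also differed between the groups. With 16'-DEC it was BCL2L1, MCL1, BAX, BID, BAK1, BAD, BCL2L2, BBC3, BCL2L11 and PMAIP1, and only BAD and BCL2L2 overlapped among neighbours in this order. In DMSO it was BCL2L1, MCL1, BAX, BCL2L2, BID, BAK1, PMAIP1, BAD, BCL2L11 and BBC3, where BAK1, PMAIP1, BAD and BCL2L11 overlapped with their neighbours. BCL2L2 stood at rank 7 with 16'-DEC and at rank 4 in DMSO, and PMAIP1 at rank 10 with 16'-DEC and at rank 7 in DMSO. Summed over each class, the anti-apoptotic genes had 646 ± 38 TPM with 16'-DEC and 525 ± 28.4 TPM in DMSO, the effectors 146 ± 5.35 TPM with 16'-DEC and 133 ± 15.2 TPM in DMSO, and the BH3-only genes 94.1 ± 0.922 TPM with 16'-DEC and 72.1 ± 3.19 TPM in DMSO (SD, n = 3 each). The sums of the anti-apoptotic and BH3-only genes did not overlap between the groups, and those of the effectors did. The higher anti-apoptotic sum came from BCL2L1 alone (436 TPM with 16'-DEC and 277 TPM in DMSO). MCL1 (188 and 218 TPM) and BCL2L2 (22.3 and 30.8 TPM) had lower means with 16'-DEC. In the BH3-only sum BID, BAD and BBC3 had higher means, and BCL2L11 and PMAIP1 lower ones. Sums of messenger RNA do not give the balance of the proteins.

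A ratio of 2 genes within a library does not depend on how that library was scaled, so 6 ratios were compared between the groups. In each the groups did not overlap, and the exact permutation test over libraries gave p = 0.1 (2-sided, also 0.1 adjusted over the 6), the smallest value that 3 against 3 allows. A threshold of 0.05 could therefore not be reached. BCL2L1 to MCL1 was 2.54, 2.07 and 2.42 with 16'-DEC, against 1.2, 1.29 and 1.32 in DMSO. The log2 ratio differed by 0.87 ± 0.0986 (SE), but by 0.08 after GC and length adjustment (exact permutation p = 0.4). BCL2L1, all its isoforms together, exceeded MCL1 in all 6 libraries. MCL1 to PMAIP1, the guardian over its antagonist, was 60.2, 106 and 67.2 with 16'-DEC, against 15.2, 16.7 and 16.1 in DMSO, a log2 difference of 2.24 ± 0.254 that was 1.11 after GC adjustment. BAX to BAK1 was 3.4 ± 0.0847 with 16'-DEC and 6.62 ± 0.988 in DMSO, so that BAX remained the more abundant effector in every library while its lead was smaller with 16'-DEC. BBC3 to PMAIP1 was 4.31 ± 0.661 with 16'-DEC and 0.612 ± 0.0615 in DMSO: by TPM the order of these genes turned round. That log2 difference was 2.81 ± 0.153, and 0.90 after GC adjustment. Which gene of a pair stands higher depends on the gene lengths behind TPM, which are not stated. BCL2L11 to BID was 0.148 ± 0.0181 with 16'-DEC and 0.496 ± 0.0522 in DMSO. BCL2L2 to MCL1 was 0.119 ± 0.00477 with 16'-DEC and 0.141 ± 0.00419 in DMSO (log2 difference -0.25 ± 0.0413, and -0.75 after GC adjustment).

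**Figure D2:**
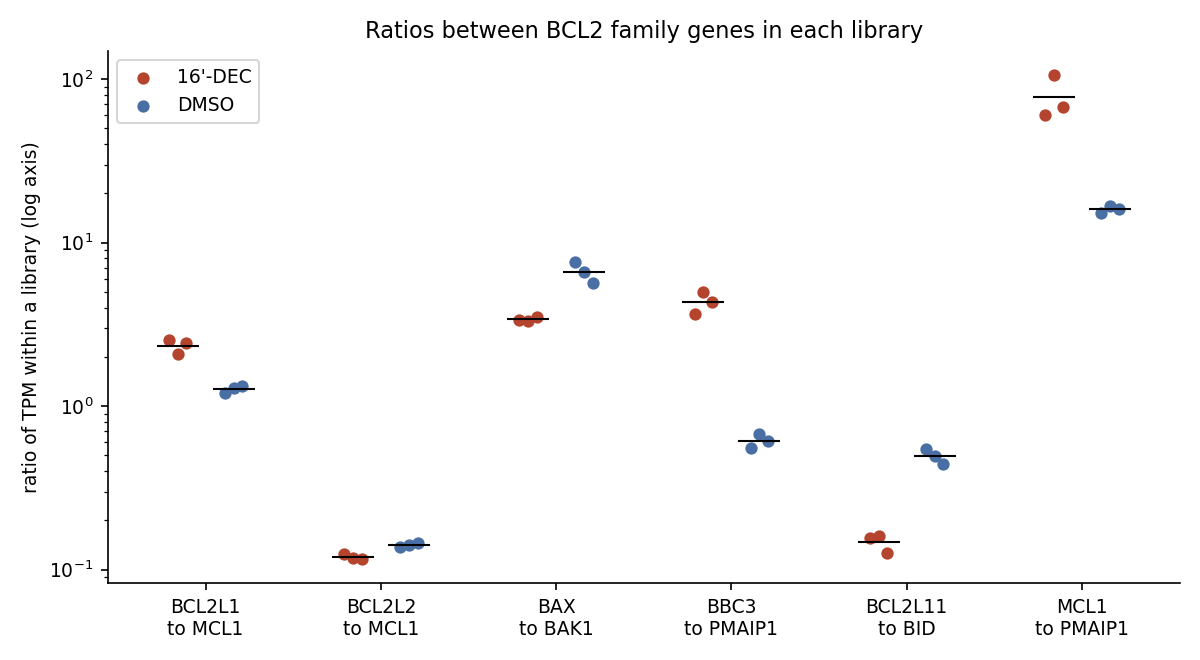
Ratio of the TPM of 2 BCL2 family genes within each library, on a log axis; red points are 16'-DEC, blue points DMSO, and lines the mean of 3 libraries. BBC3 to PMAIP1 lies above 1 with 16'-DEC (4.31) and below 1 in DMSO (0.612), and no ratio overlaps between the groups.

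Changes across all genes followed the GC content of the transcript, and the BCL2 family covers a wide range of it, from 37.2% in PMAIP1 to 69.7% in BBC3. Over all tested genes with a GC value Spearman's rho was 0.68, with a median change of -1.46 under 40% GC and 0.27 over 60%. Over the 10 members rho was 0.564, and 0.394 for the GC-adjusted changes, a description of 10 genes measured in the same libraries. Of the 7 members above the median GC content of tested genes (48.8%), 5 rose, and of the 3 below it, 2 fell. The shares of all tested genes that rose or fell on either side were not counted. Their median change was -0.86 from 40% to 45% GC and 0.22 from 55% to 60%, so these counts do not set the family apart. Set against genes of like GC content in steps of 5 points, 4 members lay above the middle 50% of changes, 2 lay below it and 4 were inside. BID at 0.94 stood above its step (middle 50% from -0.75 to 0.08), as did BAD at 0.92 (-0.13 to 0.50) and BAK1 at 0.88 (-0.13 to 0.56). BCL2L1 at 0.65 lay just above the same step as BAK1. PMAIP1 at -2.07 lay below its step (-1.86 to -0.99) and BCL2L2 at -0.45 just below its own (-0.39 to 0.40). MCL1, BAX, BCL2L11 and BBC3 were within the middle 50% of their steps, BAX (-0.03) and BCL2L11 (-0.70) near its lower ends of -0.05 and -0.75. The part of GC content in these results was not tested beyond the adjustment.

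**Figure D3:**
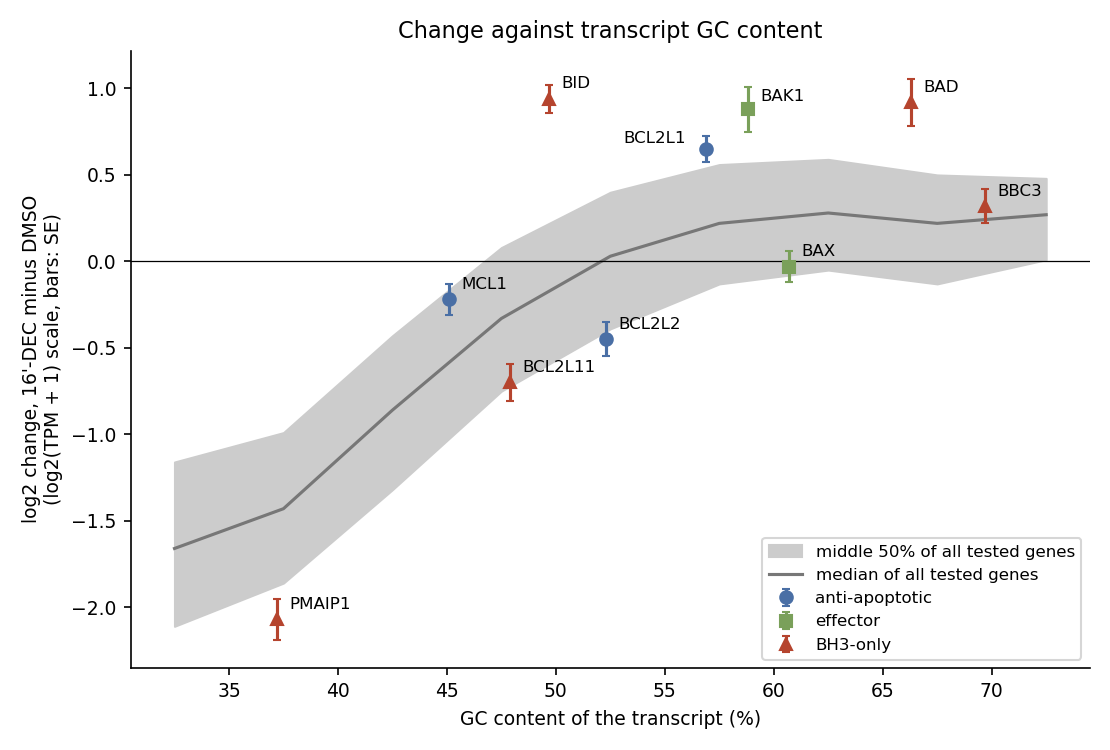
Log2 change of each BCL2 family gene (points, bars SE) against the GC content of its transcript in percent, over the median (line) and the middle 50% (band) of all tested genes in steps of 5 points. BID, BAD, BAK1 and BCL2L1 lie above the band, PMAIP1 and BCL2L2 below it.

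Under the 3 processings that most moved the whole table, the calls on BCL2L1, BAK1, BID, BAD, BCL2L11 and PMAIP1 held. With median-of-ratios scaling, which raised the median of all genes by 0.29, 6 members were higher and 2 lower (of all genes 74.7% passed, 37.1% higher and 37.7% lower). With quantile normalization, which raised the median by 0.41, 5 were higher and 2 lower (of all genes 75.2% passed, 42% higher and 33.3% lower). After GC and length adjustment, which moved the median by 0.33, 5 were higher and 4 lower (of all genes 66.2% passed, 34.5% higher and 31.7% lower). In that fit MCL1 joined the higher genes, BAX the lower ones, and BBC3 did not pass. With the replicate number as a block 5 members were higher and 3 lower (of all genes 68.9% passed, 21.1% higher and 47.8% lower).

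**Figure D4:**
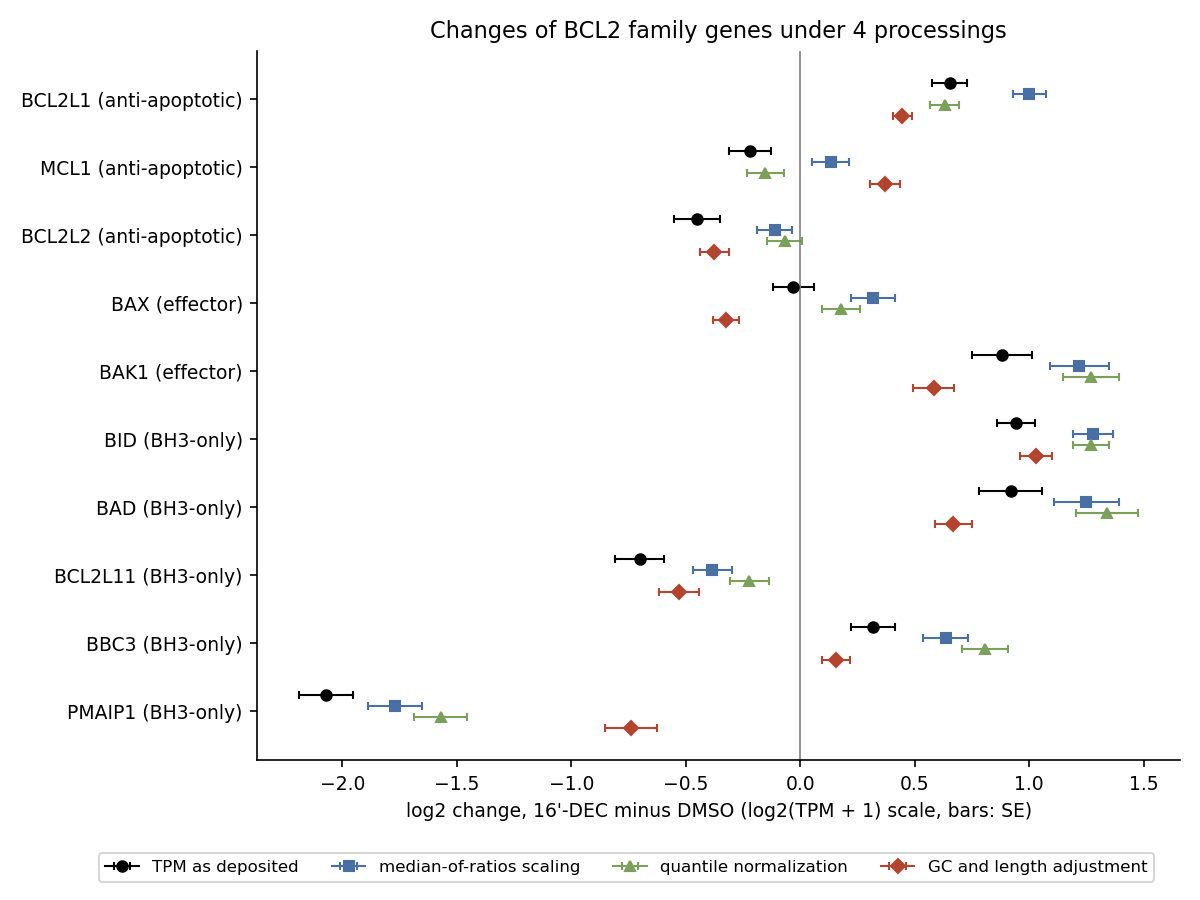
Log2 change (16'-DEC minus DMSO, bars SE) of the 10 BCL2 family genes with TPM as deposited and under 3 other processings, each with its own marker. The points of BID lie between 0.94 and 1.28, those of PMAIP1 between -2.07 and -0.74, and those of MCL1 and BAX on both sides of 0.

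The 2 BH3-only genes that fell, as did 48.9% of all tested genes, are shown with the 250 bases before their RefSeq start (GRCh38.p14). Their changes differed in size (-2.07 for PMAIP1 and -0.70 for BCL2L11), and a shared control was not tested. Capitals mark matches, on either strand, to the TATA box TATAAA, the CCAAT box CCAAT, the GC box GGGCGG, the cAMP response element TGACGTCA, the CHOP and ATF4 composite element TGATGNAAT, the AP-1 element TGANTCA and the E-box CACGTG.
PMAIP1: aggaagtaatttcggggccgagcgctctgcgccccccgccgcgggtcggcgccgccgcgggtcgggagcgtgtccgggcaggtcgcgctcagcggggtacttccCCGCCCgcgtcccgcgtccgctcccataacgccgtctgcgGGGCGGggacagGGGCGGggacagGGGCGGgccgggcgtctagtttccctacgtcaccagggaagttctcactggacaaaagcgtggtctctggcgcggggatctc
BCL2L11: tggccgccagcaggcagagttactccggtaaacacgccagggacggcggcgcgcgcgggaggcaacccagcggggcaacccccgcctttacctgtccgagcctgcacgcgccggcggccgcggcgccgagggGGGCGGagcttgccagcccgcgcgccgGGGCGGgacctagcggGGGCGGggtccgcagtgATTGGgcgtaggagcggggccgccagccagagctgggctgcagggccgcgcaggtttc

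These lie at chr18:59899746-59899995 (plus strand) for PMAIP1 and chr2:111120664-111120913 (plus strand) for BCL2L11. PMAIP1 held 4 GC boxes and BCL2L11 held 3 GC boxes and 1 CCAAT box. A GC box occurred in 42.6% of 35116 windows of the same length and a CCAAT box in 32%, so both are common. The PMAIP1 window had a GC content of 72.8%, far above the 37.2% of its transcript, and the BCL2L11 window had 76.8%. The table held 14 windows of 8 members (all but MCL1 and BCL2L2), and no cAMP response element or composite element was found in any of them (1.65% and 0.888% of all windows). BAX was the member with most E-boxes, 4 in its window, where 6.34% of all windows held at least 1, and BBC3 was the only one with an AP-1 element (6.57% of all windows). A match is a match of letters and not evidence of binding.

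Of the 14 other genes listed for the family and its relatives, 10 were tested, and 1 rose, 5 fell and 4 did not pass, where 22.7% of all tested genes rose and 48.9% fell. With either scaling 5 of the 10 were higher, beside 37.1% (median-of-ratios) and 42% (quantile) of all tested genes. BOK, an effector relative that does not need activation by BH3-only proteins, had 40.6, 39.2 and 40.1 TPM with 16'-DEC, against 21.6, 27.1 and 24.6 TPM in DMSO, and rose by 0.69 (adjusted p = 0.000159, limma). BCL2 itself, the founding anti-apoptotic gene, was low, at 0.903, 0.979 and 0.839 TPM with 16'-DEC, against 2.33, 2.47 and 2.03 TPM in DMSO. Its change of -0.78 passed (adjusted p = 0.000471), but not with quantile normalization (-0.29, adjusted p = 0.0599) or after GC adjustment (-0.19, adjusted p = 0.215). BNIP3 and BNIP3L are mitophagy receptors with a BH3-like stretch. BNIP3 had 185, 178 and 191 TPM with 16'-DEC, against 421, 430 and 386 TPM in DMSO, and fell by 1.15 (adjusted p = 1.1e-06). BNIP3L fell by 0.61 (adjusted p = 8.58e-05) but was higher after GC adjustment (0.71, adjusted p = 8.4e-06). BCL2L10, BCL2L14, BCL2L15 and HRK were under the filter. The median of the 10 was -0.12, against -0.31 over all tested genes. It turned to 0.22 with either scaling, where that of all tested genes was -0.01 (median-of-ratios) and 0.11 (quantile).

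Downstream, among 13 partners of the family in the outer membrane and the apoptosome, 6 rose and 5 fell, while 2 missed the threshold (of all tested genes 22.7% rose and 48.9% fell). Their median change was 0.13. VDAC2, the channel that holds BAK1 in the outer membrane, had 514, 517 and 493 TPM with 16'-DEC, against 241, 263 and 272 TPM in DMSO, and rose by 0.97 (adjusted p = 2.87e-06). DIABLO, which leaves mitochondria to neutralize inhibitors of caspases, had 84.5, 78 and 73.1 TPM with 16'-DEC, against 36.6, 38.6 and 40.2 TPM in DMSO, and rose by 1.01 (adjusted p = 5.99e-06). In both VDAC2 and DIABLO every treated library lay well above DMSO. ENDOG, a mitochondrial nuclease, rose by 0.64 (adjusted p = 0.000909). CYCS, which encodes cytochrome c, moved the other way, at 126, 137 and 131 TPM with 16'-DEC, against 319, 327 and 315 TPM in DMSO (-1.28, adjusted p = 4.62e-07, -0.23 after GC adjustment).

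Of 13 transcription factors known to act on genes of the family, 12 were tested, and 4 rose and 6 fell, while 2 missed the threshold, against 22.7% higher and 48.9% lower among all tested genes. Their median change was -0.11, and 0.23 with median-of-ratios scaling. FOXO1 and FOXO3, inducers of BCL2L11 and BBC3, fell by 1.06 and 0.79 (adjusted p = 2.12e-05 and 0.000229), and E2F1, which can induce several BH3-only genes, by 0.89 (adjusted p = 4.27e-05). These 3 passed as lower in every alternative. ATF3 and ATF4, stress factors that can act on PMAIP1, rose by 1.13 and 0.46 (adjusted p = 1.84e-05 and 0.000189). ATF3 had 14.2, 17.2 and 14.7 TPM with 16'-DEC, against 7.28, 6.13 and 6.06 TPM in DMSO, while PMAIP1 was lower in the same treated libraries.

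Among 16 proteins that bind, modify or degrade members of the family, 3 rose and 6 fell, while 7 missed the threshold, beside the same 22.7% and 48.9% over all genes. Their median change was -0.13. FBXW7, which marks MCL1 for degradation, USP9X, which removes such marks, and MAPK8, the kinase JNK1 that phosphorylates several members, fell by 1.07, 1.22 and 0.93 (adjusted p = 1.05e-05, 1.93e-05 and 3.62e-05). None of these directions outlasted GC adjustment, where the changes were 0.12, 0.03 and 0.64, the last passing as higher. PIM1, a kinase of BAD, rose by 0.55 (adjusted p = 0.00724), although its lowest treated library (38.5 TPM) was close to its highest DMSO library (37.5 TPM). YWHAQ, a 14-3-3 protein of the type that holds phosphorylated BAD in the cytosol, rose by 0.27 (adjusted p = 0.0172). That call was lost without 16'-DEC replicate 1 (adjusted p = 0.0521), 16'-DEC replicate 2 (adjusted p = 0.0667) or DMSO replicate 2 (adjusted p = 0.0603). After GC adjustment 9 of the 16 were higher and 2 lower, against 34.5% and 31.7% of all genes.

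**Figure D5:**
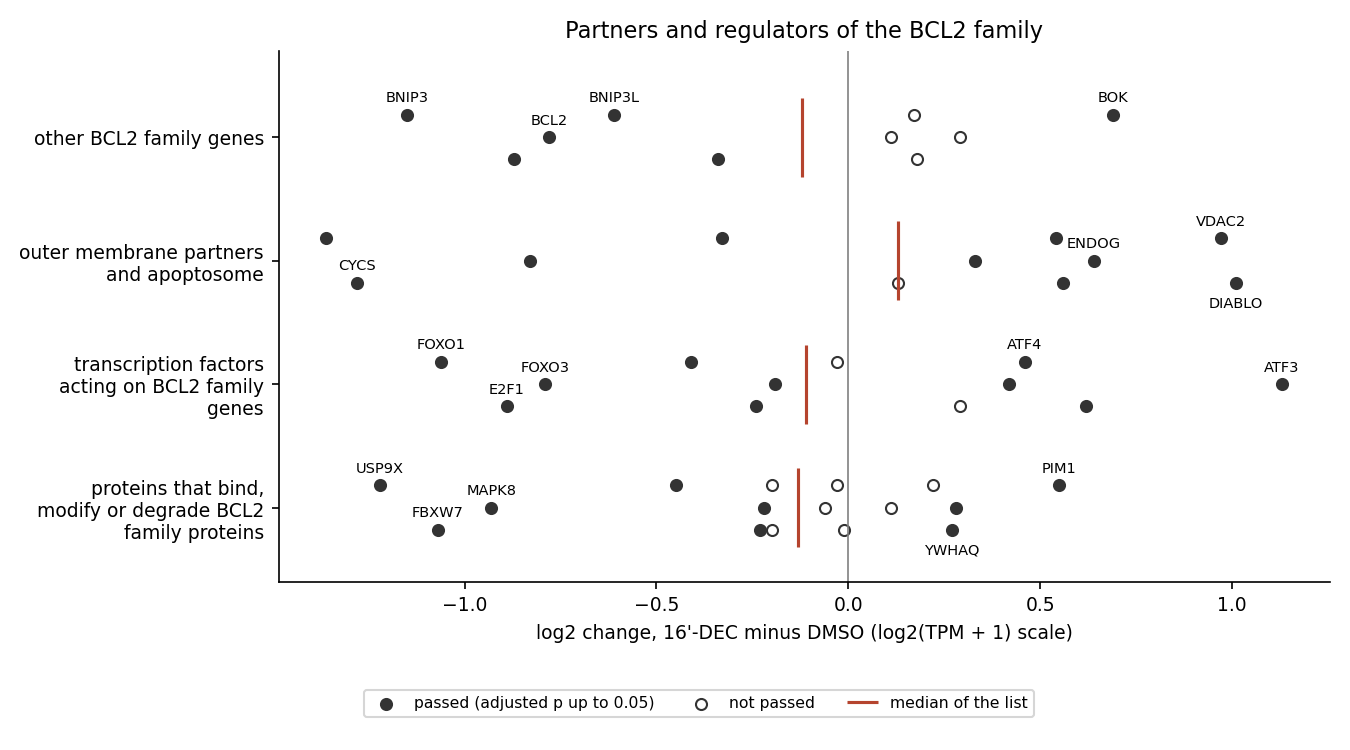
Log2 change (16'-DEC minus DMSO) of the tested genes reported from 4 lists of relatives, partners and regulators of the BCL2 family, 1 row per list; filled points passed, open points did not, red lines are the medians of the whole lists, and vertical offsets only separate points. Each list has filled points on both sides of 0, and the genes named in it run from CYCS at -1.28 to ATF3 at 1.13.

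Genes whose level ran most like that of a member over the 6 libraries were sought by Pearson's r on log2(TPM + 1) among 9814 genes with a symbol and a mean of at least 5 TPM. For BCL2L1 they were PYGB, PC and TMX2 (r = 0.99983, 0.99954 and 0.99951), and 373 genes exceeded 0.99. For BID they were COX7A2L, MYL6 and NQO1 (r = 0.99906, 0.9989 and 0.99871), and 201 genes exceeded 0.99. MCL1, whose groups overlapped, had no gene above 0.99, and KLF11 and MTRFR were among its nearest (r = 0.987 and 0.981).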

How the data were processed

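The authors deposited 1 table of TPM values for 78304 genes in 6 columns of equal sum. Its upstream steps are known only from the submitters' processing notes, which list HISAT2 2.0.1, HTSeq 0.6.1, cutadapt 1.9.1 and DESeq2, in no stated order, and GRCh38. The gene lengths behind TPM are not stated. No depth can be had from TPM, so counting error cannot be given.

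Values were fitted as log2(TPM + 1), which understates changes of low genes, with limma 3.58.1 in R 4.3.3 (eBayes with a mean trend, 2-sided), for genes averaging 1 TPM or more. The fit was tested on simulated data. Ratios were tested by exact permutation. GC content and length came from GENCODE 29 (1 transcript per gene: APPRIS principal, then basic, then longest) for 93.1% of tested genes. Their adjustment removed natural splines (5 degrees of freedom each) from each library's deviations, and its intercept re-centred each library. Members, lists and tests were chosen with earlier results of these data known. All 10 members were named whatever their values, from each list the 3 called genes with the lowest adjusted p in the commoner direction and 2 in the rarer, and for BCL2L1, MCL1 and BID the 3 genes most alike. Values of some genes that this rule names are not reported here; the fits and list counts include them. Alternatives changed the pseudocount (0.1 or 5), the filter (none, or 5 TPM), the scaling, the GC adjustment, the mean trend, array weights, the replicate block and the threshold (0.01), or left out 1 library at a time. Plots used matplotlib 3.10.9 (Python 3.11.15).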

Additional observations from a re-analysis of the deposited data

How the results depend on the processing

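Of 36 named genes under 17 alternatives, 24 kept direction and call throughout, and all 54 alternative values of the 6 ratios kept their direction. The size of BCL2L1 to MCL1, BBC3 to PMAIP1, MCL1 to PMAIP1 and BCL2L2 to MCL1 did not hold under GC adjustment. Their log2 differences were then 0.08 (p = 0.4, exact permutation), 0.90, 1.11 and -0.75. Genes higher numbered 5290 (37.1%) with median-of-ratios scaling and 5990 (42%) after quantile normalization, and after GC adjustment 4213 (31.7%) were lower. Lower were 37.7% and 33.3% with these 2 scalings, and 34.5% were higher after GC adjustment. With no filter 2991 of 39343 genes were higher, and 2523 of 14275 at a threshold of 0.01. With array weights 3580 were higher, and with a mean of at least 5 TPM 4934 of 10192 were lower. Without 1 library 2773 to 3426 were higher and 6670 to 6754 lower. The list counts below stand beside these. Named genes that turned direction were MCL1 (median-of-ratios scaling 0.133, GC adjustment 0.371), BAX (median-of-ratios scaling 0.319, quantile normalization 0.179, from -0.0897 to 0.0565 over fits without 1 library), and, after GC adjustment, BNIP3L (0.713), FBXW7 (0.116), USP9X (0.0269) and MAPK8 (0.641). KLF11 and MTRFR turned to 0.118 and 0.171 with median-of-ratios scaling and 0.254 and 0.323 after quantile normalization, and KLF11 to 0.183 after GC adjustment. KLF11 passed as lower without 16'-DEC replicate 2 (-0.288). Other family genes had 5 higher with either scaling, 3 after GC adjustment and 2 with array weights, and 3 lower with a mean of at least 5 TPM, 3 with quantile normalization and 1 after GC adjustment (1 to 2 higher over fits without 1 library, 2 of them without 16'-DEC replicate 3). Outer membrane and apoptosome genes had 3 lower after GC adjustment. Transcription factors had 3 lower with either scaling and 4 to 6 without 1 library. Binding and modifying proteins had 1 higher with no filter, 8 and 7 under median-of-ratios scaling and quantile normalization, 9 after GC adjustment, 1 at a threshold of 0.01 and 1 to 3 without 1 library (1 without 16'-DEC replicate 1 or 2), and 3 lower with median-of-ratios scaling, 2 after GC adjustment and 4 to 6 without 1 library. The cause of these shifts was not tested.

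Same-numbered libraries of the groups did not clearly deviate together (r = 0.0941, -0.182 and -0.0726 for replicates 1, 2 and 3). Libraries of unlike number ran from -0.196 to 0.274. With 3 libraries per group these values cannot settle whether the numbers pair them. With the replicate block 3014 genes were higher and 6823 lower, the 10 members had 5 higher and 3 lower, and no named gene changed its call. Depth is unknown, so what it limits cannot be given per gene.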
